A study of Mus musculus with 4 samples.

Results

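The Hippo pathway was followed in mouse embryonic stem cells through 10 genes: the kinases Lats1, Lats2, Stk3 and Stk4, the coactivators Yap1 and Wwtr1, the DNA-binding partners Tead1 and Tead2, and the angiomotins Amot and Amotl2. The genes were chosen by name, as the rows of the deposited count table whose GENCODE vM21 symbol is on that list, and 10 of 55421 gene identifiers were taken in this way. Knockout cells without the miR-290-295 microRNA cluster (KO) gave 2 libraries, and wild-type cells (WT) gave 2 libraries. All 4 libraries came from E14 embryonic stem cells, a line of 129/Ola background from the blastocyst, grown on gelatin in medium with 15% serum and 100 U/ml of the cytokine LIF. The submitters describe biological duplicates. It is not stated if each KO library is a clone of its own, so a p-value here measures only the spread between these libraries.

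The pathway is a kinase relay that restrains a pair of transcriptional coactivators. STK3 and STK4, known as the MST kinases, act with the scaffold SAV1 to activate the kinases LATS1 and LATS2, which work with MOB1. LATS kinases phosphorylate YAP and TAZ (the product of Wwtr1), which are then held in the cytoplasm or degraded. Without that phosphorylation YAP and TAZ enter the nucleus and bind TEAD proteins. Angiomotins bind YAP and TAZ and help to keep them out of the nucleus. In the early mouse embryo the pathway separates outer cells, where YAP with TEAD4 drives trophectoderm genes, from inner cells, where LATS kinases keep YAP out of the nucleus. Several targets of YAP, Lats2 and Amotl2 among them, encode inhibitors of YAP.

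The 3p strands of the deleted cluster are shown here because their seed, bases 2 to 8 from the 5′ end and in capitals below, defines the letters searched for in the members. Mature sequences are from RefSeq (GRCm38.p6), all on the plus strand of chromosome 7, and miR-292a-3p was not matched. The 3p strand of miR-293 has another seed, and the seed of miR-291b-3p differs from those below in its last base only. Neither strand is shown.
mmu-miR-291a-3p (chr7:3218968-3218989): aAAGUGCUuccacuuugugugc
mmu-miR-294-3p (chr7:3220691-3220712): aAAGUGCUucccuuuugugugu
mmu-miR-295-3p (chr7:3220815-3220837): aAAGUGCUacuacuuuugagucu
mmu-miR-290a-3p (chr7:3218674-3218697): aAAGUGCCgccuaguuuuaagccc
The first 3 share the seed AAGUGCU, and a transcript pairs with all of it through AGCACTT. The letters GCACTTA were counted as a match too, but they pair through the core GCACTT alone. Their last A faces the first base of these microRNAs, which is also an A. The core pairs with the part of the seed that miR-290a-3p and miR-291b-3p share. The seed of miR-290a-3p ends in another base and pairs with GGCACTT.

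Of the 10 members, 5 held at least 1 of these 7-base matches in their longest annotated 3′ UTR, against 25.8% of the 12484 tested genes with an annotated 3′ UTR. The members' 3′ UTRs had a median length of 2887 bases, against 1164 bases for all of these genes, and a longer sequence holds more matches of any kind. Windows of 30 bases around the 7-base and 8-base matches, from GENCODE vM21 transcripts on GRCm38, read as follows, with the match in capitals.
Lats2 (chr14:57691078-57691107, minus strand): tacagtatggaaagAGCACTTAttttgtgg
Lats2 (chr14:57690979-57691008, minus strand): gtgttgtatctgatAGCACTTgtccacagc
Wwtr1 (chr3:57457013-57457042, minus strand): ttgctctctctctgAGCACTTcaagagaga
Lats1 (chr10:7714142-7714171, plus strand): tggctcagtggtagAGCACTTgcctaacat
Stk4 (chr2:164151873-164151902, plus strand): catgtctgttagccAGCACTTctgctctgt
Tead1 (chr7:112899954-112899983, plus strand): ccataagcctcagtGGCACTTtacacatat
Lats2 alone among the members held the 8-base match AGCACTTA, with its core 196 bases after the stop codon in a 3′ UTR of 1626 bases, and a 7-base match 99 bases further on. The core of the Wwtr1 match lay at base 1899 of 3277, that of Lats1 at 1147 of 3450, that of Stk4 at 57 of 3693 and that of Tead1 at 1309 of 8147. Wwtr1 and Tead1 each held 2 further copies of the core GCACTT alone, and Stk3 held 1. Yap1, Tead2, Amot and Amotl2 held none of these words. With the shortest annotated 3′ UTR of each gene, 3 members held a 7-base match (Lats2, Stk4 and Wwtr1), against 15.2% of genes. The shortest 3′ UTR of Lats2, 171 bases long, held GGCACTT and neither of the Lats2 matches printed above.

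**Figure D1:**
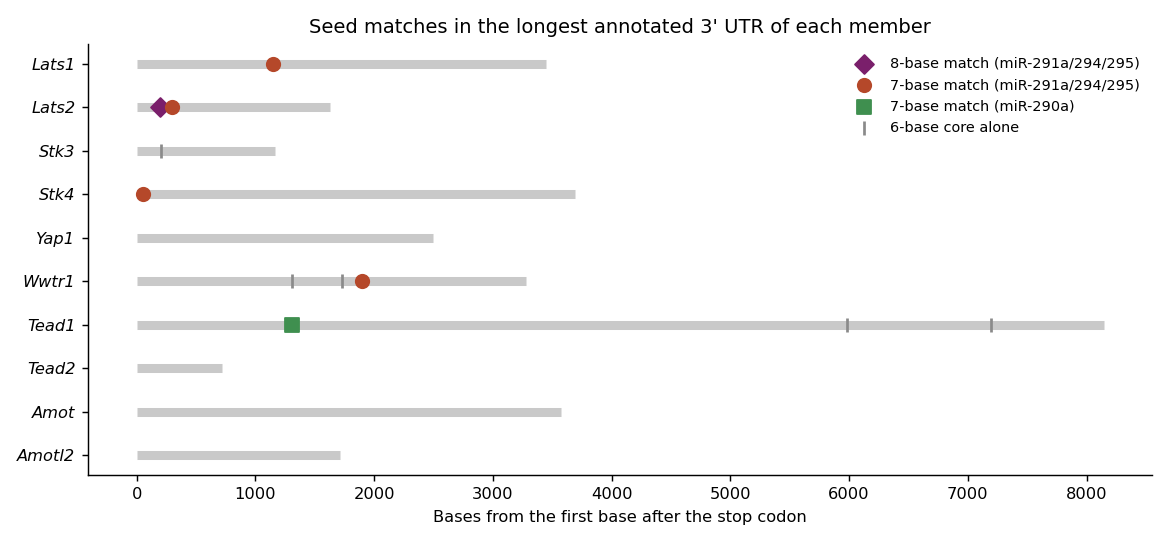
Grey bars are the longest annotated 3′ UTR of each of the 10 members, in bases from the first base after the stop codon, and symbols mark matches to the seeds of the deleted microRNAs. Lats2 holds the diamond of an 8-base match near its start, and Yap1, Tead2, Amot and Amotl2 hold no symbol.

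Libraries held 12726123 counts (KO 1), 11764868 (KO 2), 12163759 (WT 1) and 9925557 (WT 2), in a method that reads only the 3′ ends of transcripts, so levels are given as CPM, the counts scaled to a library total of 1000000, and were not divided by transcript length. Mir295, the gene of the cluster examined as a check of the labels, held 0 counts in KO 1 and KO 2, against 80 in WT 1 and 22 in WT 2. An exon of Nlrp12 on the other strand spans it, and Nlrp12 held 161 counts in KO 1 and 0 in KO 2, against 0 in WT 1 and 1 in WT 2, so the KO libraries differed from each other at the locus. Values without KO 1 are given below where they change a call or a sign, and Wwtr1 gave a log2 fold change of 1.18 without it. The summed level of 9 embryonic stem cell markers was 3690 and 3770 CPM in KO libraries, against 3730 and 4130 CPM in WT libraries, and 2 of them, Klf4 and Utf1, were called lower. Of 9 primitive endoderm markers 6 were called lower, and their sum was 26.3 and 24.4 CPM in KO, against 168 and 183 CPM in WT. Trophoblast markers (8 genes) summed to 17.8 and 16.7 CPM in KO and to 13.9 and 24.0 CPM in WT, and fibroblast markers (8 genes, with Col3a1 and Postn at 0 in every library) to 13.4 and 23.5 CPM in KO and to 33.2 and 57.4 CPM in WT, with 1 trophoblast and 2 fibroblast markers called lower. Thy1 made up most of the fibroblast sum, with 9.82 and 20.3 CPM in KO and 26.8 and 50.2 CPM in WT. The part of these cell types in the results below was not tested. Fewer cells of a type cannot be told apart from less RNA per cell in bulk RNA.

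Among the 10 members, all of which passed the filter on low counts, Wwtr1, the gene of TAZ, rose 2.25-fold in KO. The other 9 did not pass the test: Yap1 stood at 1.44-fold and Amot, with few counts, at 0.406-fold. The 4 kinase genes and the 2 TEAD genes had fold changes between 0.819 and 1.58. The test was edgeR's quasi-likelihood F test over the 14427 genes that passed the filter, at a Benjamini-Hochberg adjusted p below 0.05. It called 1 member higher (the background is 7.42% of all tested genes) and 0 lower (background 4.96%). DESeq2 likewise called 1 higher and 0 lower. The KO libraries did not overlap the WT libraries for 5 of the 10 members, against 58.0% of all tested genes, so that count is near the background. The members' median log2 fold change was -0.07, against -0.006 over all tested genes.

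**Figure D2:**
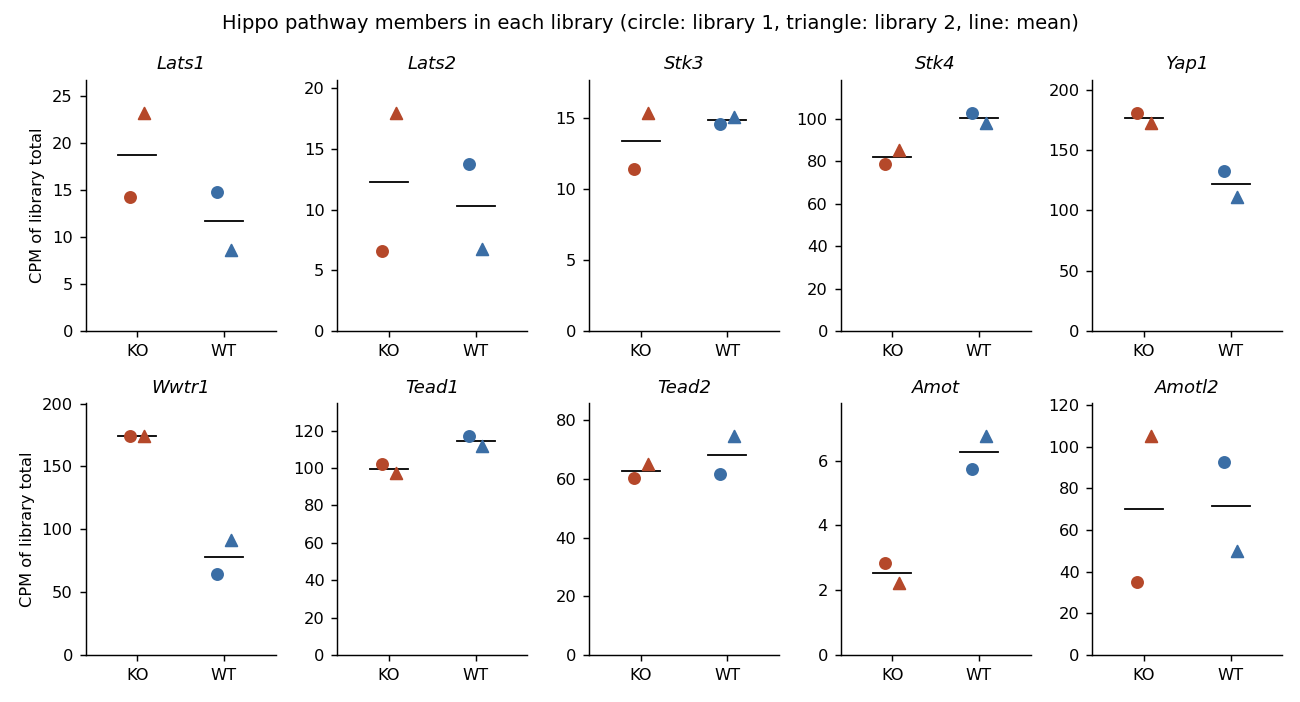
Each panel gives 1 member's level in CPM of the library total (linear axis from 0), with KO libraries left, WT libraries right, circles for library 1, triangles for library 2 and a line at the mean of each group. Wwtr1 is near 174 CPM in both KO libraries and at 64 and 91.4 CPM in the WT libraries, and for Amotl2, Lats2 and Lats1 the higher library of each group is KO 2 and WT 1, although KO 1 and WT 1 are close for Lats1 (14.2 and 14.8 CPM).

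The MST kinases start the relay. Stk4 (ENSMUSG00000018209, chr2:164070322-164155524) had 78.7 CPM in KO 1 and 85.4 CPM in KO 2, against 103 CPM in WT 1 and 97.9 CPM in WT 2. Both KO libraries were below both WT libraries, by a small margin, and its log2 fold change of -0.29 (SE 0.16) had an edgeR adjusted p of 0.269. Stk3 (ENSMUSG00000022329, chr15:34875496-35178921) had 11.4 and 15.4 CPM in KO, against 14.6 and 15.1 CPM in WT. The groups overlapped, and its log2 fold change was -0.15 (SE 0.26, adjusted p = 0.762). Stk4 carries an AGCACTT match close to its stop codon and did not stand higher in KO. The summed level of the pair was 90.1 and 101 CPM in KO, against 117 and 113 CPM in WT.

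Lats2 and Lats1, whose products phosphorylate YAP and TAZ, differed between libraries of the same group by more than their group means did. Lats2 (ENSMUSG00000021959, chr14:57689662-57758388) held 84 counts in KO 1 and 212 in KO 2, against 168 in WT 1 and 67 in WT 2, or 6.6 and 18.0 CPM in KO and 13.8 and 6.75 CPM in WT. The high libraries were KO 2 and WT 1, the groups overlapped over their whole range, and the log2 fold change was 0.25 (SE 0.48, adjusted p = 0.789). Its sign depended on single libraries: it was 0.81 without KO 1 and 0.88 without WT 1, but -0.64 without KO 2 and -0.19 without WT 2. Lats2 is the member with the 8-base seed match, and these 4 libraries do not give its change a direction. Lats1 (ENSMUSG00000040021, chr10:7681214-7716460) followed the same order, with 14.2 and 23.2 CPM in KO, against 14.8 and 8.66 CPM in WT. Its log2 fold change was 0.66 (SE 0.34, adjusted p = 0.242), and without WT 1 it was 1.13 and passed (adjusted p = 0.0392).

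Of the coactivator genes Wwtr1 rose in KO and Yap1 narrowly missed the threshold. Wwtr1 (ENSMUSG00000027803, chr3:57455649-57575910) held 2220 counts in KO 1 and 2046 in KO 2, against 779 in WT 1 and 907 in WT 2. That is 174 ± 0.380 CPM in KO and 77.7 ± 19.3 CPM in WT (SD, n = 2 each). The KO libraries were alike and both lay above both WT libraries, and the difference exceeded the spread between replicates: its log2 fold change was 1.17 (SE 0.18, edgeR adjusted p = 0.00497). It was called with any 1 library left out, with log2 fold changes between 0.95 (without WT 1) and 1.42 (without WT 2). Yap1 (ENSMUSG00000053110, chr9:7931999-8004596) had 181 and 172 CPM in KO, against 133 and 111 CPM in WT. Its KO libraries also lay above its WT libraries, and its log2 fold change of 0.53 (SE 0.16) missed the threshold, with an adjusted p of 0.0621. Without WT 1 Yap1 gave 0.69. It passed with no filter on low counts (0.53, adjusted p = 0.0271). Yap1 had passed that filter, so its log2 fold change was unchanged, and only the fit over all genes differed. That fit also called Ccn1, whose groups overlapped. The chromosome medians for Wwtr1 and Yap1, 0.01 for chromosome 3 and -0.06 for chromosome 9, were near 0.

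Together the tags of Yap1 and Wwtr1 came to 355 and 345 CPM in KO, against 197 and 202 CPM in WT. Within that sum the share of Wwtr1 was 49.1% in KO 1 (95% Wilson interval 47.6 to 50.6) and 50.3% in KO 2 (48.8 to 51.9), against 32.5% in WT 1 (30.6 to 34.4) and 45.2% in WT 2 (43.0 to 47.4). The share in WT 2 was closer to those in KO than to that in WT 1. These intervals reflect counting error alone and not the spread between libraries. PCR copies of a molecule cannot be told from separate molecules, so the intervals may be too narrow even for counting error. A 7-base match stands in the 3′ UTR of Wwtr1 and none in that of Yap1. Over all tested genes with a 7-base match 10.3% were called higher and 3.26% lower, with a median log2 fold change of 0.10.

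**Figure D3:**
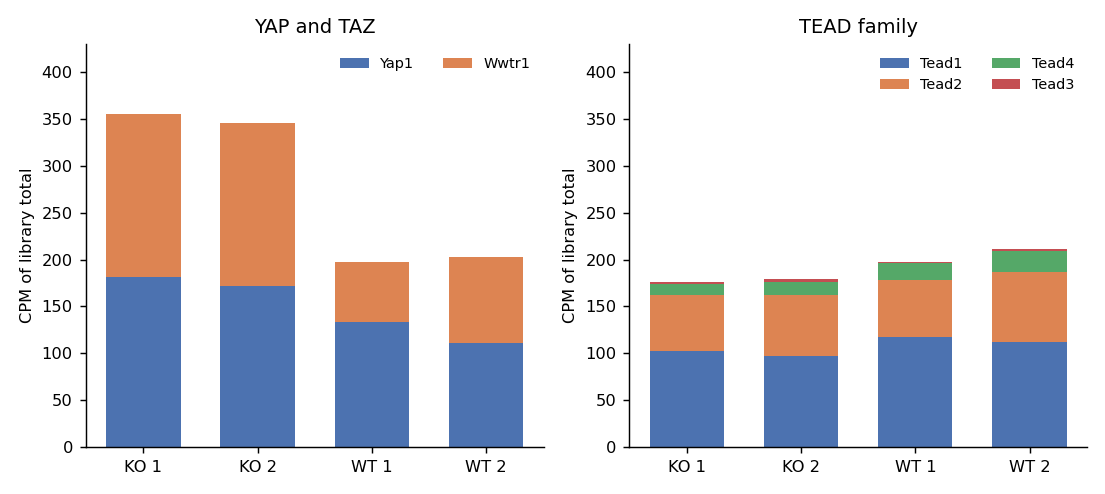
Stacked bars give the level of Yap1 and Wwtr1 (left) and of the TEAD genes (right) in each library, in CPM of the library total on linear axes from 0. The YAP and TAZ bars reach 355 and 345 CPM in KO libraries and 197 and 202 CPM in WT libraries, and the TEAD bars 176 and 179 CPM in KO and 197 and 211 CPM in WT.

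The TEAD proteins carry YAP and TAZ to DNA. Tead1 (ENSMUSG00000055320, chr7:112679318-112906807) had 102 and 97.2 CPM in KO, against 117 and 112 CPM in WT. Both KO libraries were lower, without passing the test, with a log2 fold change of -0.20 (SE 0.15, edgeR adjusted p = 0.442). Tead2 (ENSMUSG00000030796, chr7:45215753-45233644), the TEAD gene known for its expression in early embryos, had 60.3 and 65.2 CPM in KO, against 61.5 and 74.5 CPM in WT. Its groups overlapped, with a log2 fold change of -0.11 (SE 0.17, adjusted p = 0.726). An exon of Cd37, on the other strand, overlaps the last exon of Tead2, and whether counting used strand is not given. Cd37 held 125 and 236 counts in KO, against 139 and 51 in WT, where Tead2 held 767 and 767 in KO, against 748 and 739 in WT.

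Tead4, the factor of the trophectoderm, and Tead3 belong to the partner list and complete the family. Tead4 had 11.1 and 13.9 CPM in KO, against 17.5 and 22.9 CPM in WT (log2 fold change -0.68, SE 0.26, adjusted p = 0.117), and it passed without WT 1 (-0.85, adjusted p = 0.0481). Tead3 was low, with 31 and 33 counts in KO, against 17 in each WT library (0.76, SE 0.49, adjusted p = 0.359). All 4 together summed to 176 and 179 CPM in KO, against 197 and 211 CPM in WT. The share of Tead2 in that sum was 34.2% and 36.4% in KO, against 31.2% and 35.2% in WT. The share of Tead4 was 6.29% and 7.78% in KO, against 8.88% and 10.8% in WT. Both KO sums of the family lay below both WT sums, and Tead4 had the lower share in both KO libraries. The 95% Wilson intervals of its share overlapped between KO 2 (6.71 to 9.0) and WT 1 (7.81 to 10.1).

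The angiomotins hold YAP and TAZ outside the nucleus. Amot (ENSMUSG00000041688, chrX:145446425-145505181) held 36 and 26 counts in KO, against 70 and 67 in WT, or 2.52 ± 0.438 CPM in KO and 6.25 ± 0.704 CPM in WT (SD, n = 2 each). Both KO libraries were below both WT libraries at this shallow depth, and the log2 fold change of -1.30 (SE 0.40) missed the threshold, with an edgeR adjusted p of 0.0625. With no filter on low counts Amot passed (adjusted p = 0.0300), with the limit given for Yap1. Amotl2 (ENSMUSG00000032531, chr9:102716672-102733418) held 448 and 1240 counts in KO, against 1129 and 496 in WT, or 35.2 and 105 CPM in KO and 92.8 and 50 CPM in WT. The high libraries were again KO 2 and WT 1, the group means were 70.3 ± 49.6 CPM in KO and 71.4 ± 30.3 CPM in WT (SD, n = 2 each), and the log2 fold change was -0.03 (SE 0.44, adjusted p = 0.976). It was 0.56 without KO 1, 0.51 without WT 1, -1.02 without KO 2 and -0.42 without WT 2, so its sign rests on single libraries.

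**Figure D4:**
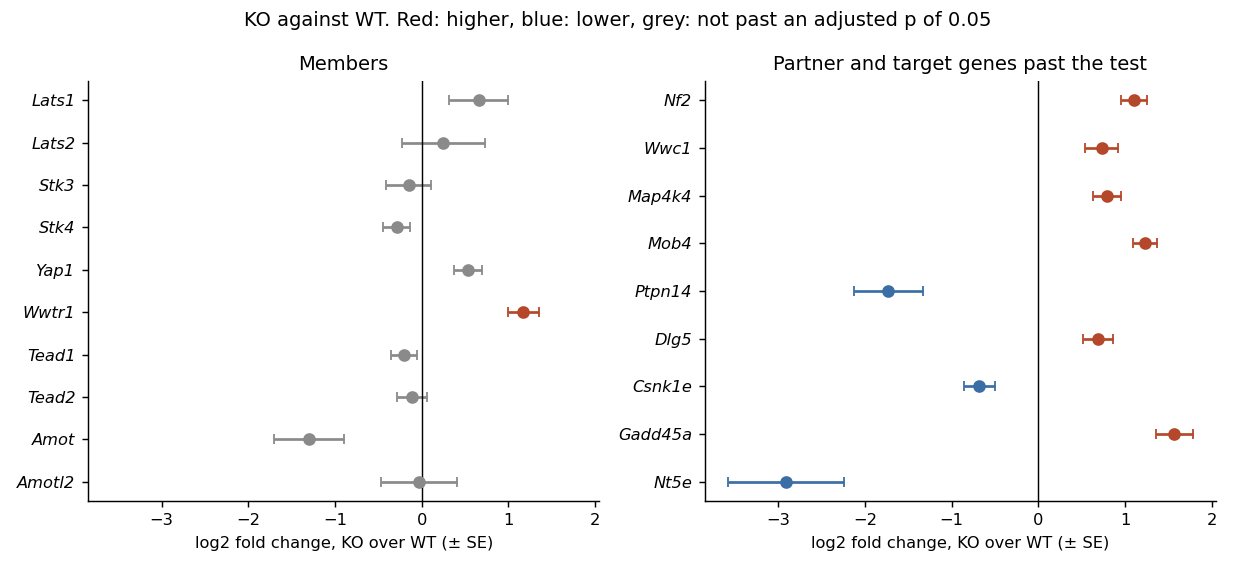
Points are log2 fold changes of KO over WT with their standard errors, for the 10 members (left) and for the partner and target genes that passed the test (right). Wwtr1 at 1.17 is the member past the threshold, beside Nf2 at 1.11 and Mob4 at 1.23 on the right.

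The rest of the pathway was read from a list of 48 components that are not members, of which 44 were tested. In KO the upstream regulators Nf2 and Wwc1 rose, as did the kinase gene Map4k4, the STRIPAK component gene Mob4 and the scaffold gene Dlg5, while Ptpn14 and Csnk1e fell. That is 5 higher and 2 lower of 44, where all tested genes gave 7.42% higher and 4.96% lower, so the lower count was at the background and the higher count not far above it. The list's median log2 fold change was 0.26, against -0.006 over all tested genes. The counts of partners called changed when a single library was left out, and so did those of all tested genes.

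Nf2, the gene of Merlin, which recruits LATS kinases to the membrane, had 233 and 248 CPM in KO, against 105 and 119 CPM in WT. Its groups were well apart, with a log2 fold change of 1.11 (SE 0.15, edgeR adjusted p = 0.00231). Wwc1, the gene of the adaptor KIBRA, which acts with Merlin, had 106 and 118 CPM in KO, against 56.7 and 79.6 CPM in WT (0.73, SE 0.19, adjusted p = 0.0366). Its call was lost without KO 1 (0.80), KO 2 (0.65) or WT 1 (0.51), and also among genes with a mean of at least 10 CPM (0.70, adjusted p = 0.0549), and the direction held. Map4k4, a kinase that can phosphorylate LATS beside the MST kinases, had 653 and 497 CPM in KO, against 322 and 344 CPM in WT (0.79, SE 0.16, adjusted p = 0.0150, and 0.59 with an adjusted p of 0.157 without KO 1). Mob4, a subunit of the STRIPAK phosphatase complex that opposes the MST kinases, had 416 and 439 CPM in KO, against 168 and 197 CPM in WT (1.23, SE 0.14, adjusted p = 0.00126). Of the 5 genes called higher, Mob4 alone held a 7-base seed match in its longest 3′ UTR. Mob4, Map4k4 and Ptpn14 are on chromosome 1, where the median log2 fold change over tested genes was 0.27.

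Dlg5, a polarity scaffold, had 88.2 and 76.1 CPM in KO, against 50.4 and 51.5 CPM in WT (0.69, SE 0.17, adjusted p = 0.0298), and lost its call without KO 1 (0.59) or KO 2 (0.80). Ptpn14, whose product binds YAP and holds it in the cytoplasm, had 9.9 and 9.01 CPM in KO, against 44.9 and 17.5 CPM in WT (-1.73, SE 0.40, adjusted p = 0.0233). The larger part of that difference was in WT 1, and without it Ptpn14 gave -0.87 (adjusted p = 0.0615). Csnk1e, a casein kinase that marks YAP for degradation, had 154 and 169 CPM in KO, against 215 and 305 CPM in WT (-0.68, SE 0.18, adjusted p = 0.0382), and lost its call without KO 1 (-0.61), KO 2 (-0.74) or WT 2 (-0.43).

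The partners of the core kinases did not pass. Sav1, the MST scaffold, gave -0.54 (SE 0.22, adjusted p = 0.148). The LATS cofactor genes gave 0.72 for Mob1a (SE 0.28, adjusted p = 0.125) and 0.23 for Mob1b (SE 0.27, adjusted p = 0.621). Mob1a had 91.7 and 104 CPM in KO, against 77.8 and 39.8 CPM in WT, and it passed without WT 1 (1.31, adjusted p = 0.000405) and with no filter on low counts (0.73, adjusted p = 0.00352). Vgll4, whose product competes with YAP for TEAD, had 11.4 and 14.1 CPM in KO, against 6.91 and 6.15 CPM in WT (0.96, SE 0.30, adjusted p = 0.0638), and passed with no filter on low counts (adjusted p = 0.0379). The passes of Mob1a and Vgll4 with no filter carry the limit given for Yap1. Fat4 and Vgll1 in that list held 0 counts in every library.

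Target genes of YAP and TEAD were read from a published signature of 22 genes, of which 18 were tested and 2, Amotl2 and Lats2, are members. In KO the stress response gene Gadd45a rose, and Nt5e, which encodes a surface nucleotidase, and Ptpn14, which is also in the partner list, fell. The other 15 did not pass. With 7.42% of all tested genes higher and 4.96% lower, 1 higher and 2 lower of 18 do not stand apart from the background. The list's median log2 fold change was -0.04, against -0.006 over all tested genes. Gadd45a had 151 and 143 CPM in KO, against 58.7 and 40.4 CPM in WT (1.57, SE 0.21, edgeR adjusted p = 0.00210), and its groups were well apart. It is also known as a gene induced by other stress pathways. Nt5e held 12 and 21 counts in KO, against 198 and 39 in WT (-2.91, SE 0.67, adjusted p = 0.0238), so that WT 1 carried most of the difference, and without it the value was -1.51 (adjusted p = 0.134). Ankrd1, another well known target, did not pass the filter on low counts, with 1 and 0 counts in KO, against 40 and 4 in WT. The count of targets called lower also changed when a single library was left out, as did that of all tested genes.

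The best known targets of YAP and TAZ, Ccn1 and Ccn2, which encode secreted matricellular proteins, differed more between libraries of a group than between groups. Ccn2 held 664 counts in KO 1 and 2478 in KO 2, against 1526 in WT 1 and 316 in WT 2, or 52.2 and 211 CPM in KO and 125 and 31.8 CPM in WT. Ccn1 held 25 and 300 counts in KO, against 622 and 123 in WT, or 1.96 and 25.5 CPM in KO and 51.1 and 12.4 CPM in WT. For both genes KO 2 and WT 1 were the high library of their group. Their log2 fold changes were 0.73 for Ccn2 (SE 0.65, edgeR adjusted p = 0.516) and -1.23 for Ccn1 (SE 0.88, adjusted p = 0.404), and both changed sign with a single library left out: Ccn2 gave -0.60 without KO 2 and Ccn1 gave 0.16 without WT 1. With no filter on low counts edgeR called both, Ccn2 higher (adjusted p = 0.0018) and Ccn1 lower (adjusted p = 8.76e-05), and Ccn2 was also called higher without KO 1 (1.42) or WT 1 (2.06). Ccn1 was called lower without KO 2 (-4.02).

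This order of libraries, KO 2 above KO 1 and WT 1 above WT 2, was shared by Ccn1, Ccn2, Amotl2, Lats2 and Lats1. Both differences were at least 1.5-fold for 3 of the 10 members (Amotl2, Lats2 and Lats1) and for 7 of the 18 tested targets, Amotl2 and Lats2 included, against 2.44% of all tested genes (352 of 14427). The 1.5-fold limit was chosen after these values were seen, so the counts are a description. Amotl2 differed 2.99-fold between the KO libraries and 1.86-fold between the WT libraries, Lats2 2.73-fold and 2.05-fold, and Lats1 1.63-fold and 1.71-fold. For Ccn2 the differences were 4.04-fold and 3.94-fold, and for Ccn1 13.0-fold and 4.13-fold.

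Among the 10360 genes with a mean of at least 5 CPM, ranked by the smaller of the 2 differences, Ccn1 was at rank 1 and Ccn2 at rank 2. Lats2 was at rank 17, Ajuba, whose product inhibits LATS, at rank 23, Nt5e at rank 27, Amotl2 at rank 29 and Lats1 at rank 58. Ajuba had 68.7 and 136 CPM in KO, against 101 and 51.4 CPM in WT. It was the 1 gene of 44 tested partners with both differences, a share near the 2.44% of all tested genes. The targets Fjx1 and Tgfb2, under that level, also had both differences. The immediate early genes Arc (rank 3), Egr1 (rank 6) and Junb (rank 20) stood near them, with Dio3 (rank 4) and Mc1r (rank 5) between Arc and Egr1. Egr1 had 83.2 and 211 CPM in KO, against 304 and 68.7 CPM in WT. Atf3, also an immediate early gene, did not follow the order, with log2 ratios of 0.596 (KO 2 over KO 1) and -0.452 (WT 1 over WT 2). Such genes were not examined as a set. Ajuba, Fjx1, Tgfb2, Ankrd1, Arc, Egr1, Junb, Dio3, Mc1r and Atf3 were picked once their values were known. The other 7 members did not differ by 1.5-fold in either direction between the libraries of a group.

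Depth, the mitochondrial share and the summed markers did not follow this order of libraries. Depth was higher in KO 1 than in KO 2 and higher in WT 1 than in WT 2. Mitochondrial genes took 5.08% of counts in KO 1 and 4.93% in KO 2, against 6.02% in WT 1 and 5.58% in WT 2. The primitive endoderm sum differed little within groups, as given above, and the fibroblast sum, mostly Thy1, was higher in KO 2 and in WT 2. The trophoblast sum ran the other way, with 17.8 and 16.7 CPM in KO, against 13.9 and 24.0 CPM in WT. Of the single markers Sox7, an endoderm gene also picked once its values were known, did follow the order by at least 1.5-fold in both groups, with 17 and 34 counts in KO, against 58 and 29 in WT. Such differences in the opposite sense, KO 1 above KO 2 with WT 2 above WT 1, were seen for 394 genes. The labels give no culture date, density or batch, and the part of these in the pattern was not tested.

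**Figure D5:**
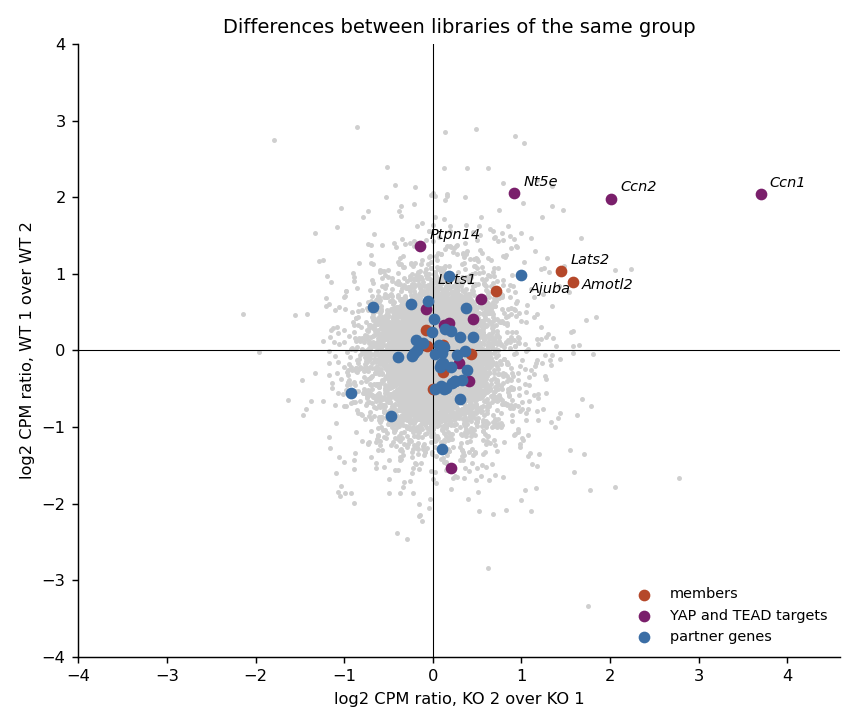
Each point is 1 of 10360 genes with a mean of at least 5 CPM, placed by the log2 CPM ratio of KO 2 over KO 1 (horizontal) and of WT 1 over WT 2 (vertical). Grey points are all genes, 4 of which lie outside the axes, and coloured points are members, targets and partners. Ccn1, Ccn2, Lats2, Amotl2 and Ajuba lie in the upper right, outside the bulk of genes, while most members and partners lie near the centre.

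Promoters were searched for the letters at the core of TEAD binding sites, GGAATG on either strand (read as CATTCC on the other). The search was not limited to genes that share this order of libraries. In the 300 bases from 250 before to 50 after a RefSeq start site (GRCm38.p6), 4 of the 8 members with an entry held it (Amotl2, Lats2, Wwtr1 and Yap1), against 14.4% of the 10256 tested genes with an entry. Stk3 and Tead1 had no entry, and Lats1, which shares the order, did not hold the letters. Of the genes with both within-group differences, 16.3% held it. The letters were also held by 13 of 38 partner genes with an entry (34.2%), and of the tested partners only Ajuba had both differences. They were held by 7 of 15 targets with an entry (46.7%), Amotl2 and Lats2 included. The targets Ccn2 and Fjx1, which followed the order, had no entry. Nt5e and Tgfb2 followed it too, and their entries did not hold the letters. Axl, Crim1 and Ptpn14 held the letters and lacked both differences. The promoters of Amotl2 and Lats2, the members that varied most between libraries of a group, are printed whole, with the match in capitals.
Amotl2 (chr9:102717554-102717853, plus strand): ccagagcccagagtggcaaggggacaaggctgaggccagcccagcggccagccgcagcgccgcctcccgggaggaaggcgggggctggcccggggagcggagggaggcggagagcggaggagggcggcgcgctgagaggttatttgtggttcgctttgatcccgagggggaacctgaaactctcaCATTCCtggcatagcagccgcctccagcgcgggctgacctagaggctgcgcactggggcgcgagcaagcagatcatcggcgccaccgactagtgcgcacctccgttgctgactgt
Lats2 (chr14:57746074-57746373, minus strand): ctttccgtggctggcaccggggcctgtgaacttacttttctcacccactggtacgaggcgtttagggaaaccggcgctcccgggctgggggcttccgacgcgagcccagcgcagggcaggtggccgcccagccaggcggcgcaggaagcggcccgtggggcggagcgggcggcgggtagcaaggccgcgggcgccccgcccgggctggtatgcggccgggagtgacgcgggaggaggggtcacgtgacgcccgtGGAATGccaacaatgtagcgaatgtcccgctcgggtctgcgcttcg
The match starts 65 bases before the start site in Amotl2 and at base 5 after it in Lats2, which has a second start site without the letters. Windows of 30 bases from the other members and from the target Ccn1 and the LATS inhibitor gene Ajuba are shown for comparison.
Wwtr1 (chr3:57576029-57576058, minus strand): ggtaaactcaaaGGAATGcagataggcgct
Yap1 (chr9:8004720-8004749, minus strand): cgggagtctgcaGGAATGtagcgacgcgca
Ccn1 (chr3:145650071-145650100, minus strand): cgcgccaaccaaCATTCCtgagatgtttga
Ajuba (chr14:54577808-54577837, minus strand): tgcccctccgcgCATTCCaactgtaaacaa
Wwtr1 and Yap1 hold the letters too and did not follow the order of libraries that Amotl2 and Lats2 did. A match is a description of these letters, not of binding.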

How the data were processed

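Poly(A) RNA of 4 libraries was made into QuantSeq 3′ FWD libraries, per the labels' protocols. The authors deposited raw counts per Ensembl gene, with no normalization. The submitters' processing notes name Trim Galore and GRCm38. Aligner, counting program and strand setting were not given in the sources used here.

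Genes were named with GENCODE vM21. KO was set against WT with edgeR 4.0.16 (R 4.3.3; TMM factors between 0.987 and 1.015, filterByExpr, quasi-likelihood F test, two-sided, Benjamini-Hochberg adjustment over 14427 genes). Each standard error was taken as the size of the log2 fold change over the root of its F statistic. CPM values use library totals, and a floor of 3 counts is between 0.236 and 0.302 CPM. The scripts were tested on simulated counts. Named genes were the 10 members, every called gene of the 2 lists and Tead3, Tead4, Sav1, Mob1a, Mob1b, Nf2, Vgll4, Ccn1 and Ccn2. Mir295, Nlrp12, Cd37, Fat4, Vgll1, Col3a1 and Postn were named for checks. Ajuba, Fjx1, Tgfb2, Ankrd1, Sox7, Arc, Egr1, Junb, Dio3, Mc1r and Atf3 were named after their values were seen. The 1.5-fold limit and the minimum of 5 CPM for ranks were also set after that. The members and lists were chosen with earlier results of these data known. The alternatives were DESeq2 1.42.0 (size factors, and its test), other filters, each library left out, the replicate number as a block, chromosome medians removed, and other 3′ UTRs and sites.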

Additional observations from a re-analysis of the deposited data

How the results depend on the processing

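Wwtr1 was called under each alternative that gave a test, with log2 fold changes between 0.95 and 1.42. With the replicate number as a block (replicate block), 638 genes were higher and 370 lower, 1 member was higher and 0 lower, and partners gave 4 higher and 1 lower, targets 1 higher and 1 lower. The deviations of same-numbered libraries had a correlation of -0.0703, and the labels do not pair them. With a mean of at least 10 CPM, 636 genes were higher and 391 lower, and 1 target was lower. With no filter, 1193 genes were lower, and 2 members were higher (Wwtr1 and Yap1) and 1 lower (Amot). In that setting 8 partners were higher, and targets gave 2 higher and 5 lower. It left log2 fold changes nearly as they were and lowered the edgeR adjusted p of called genes, for Nf2 from 0.00231 to 1.05e-08. With 1 library left out, the genes called higher ranged from 556 to 1477 and those lower from 285 to 1011, members higher from 1 to 3, partners higher from 2 to 8 and lower from 1 to 2, and targets higher from 1 to 2 and lower from 0 to 4. A lone library was then assumed to vary like the other group's pair. With 1 library left out the sign turned within the ranges of Lats2 (-0.64 to 0.88), Amotl2 (-1.02 to 0.56), Stk3 (-0.38 to 0.06), Tead2 (-0.23 to 0.01), Mob1b (-0.03 to 0.55), Ccn1 (-4.02 to 0.16) and Ccn2 (-0.60 to 2.06). The cause was not tested. Members with a seed match numbered 3 with the shortest 3′ UTR and 1 with 8-base sites. With chromosome medians removed, which gives no test, Wwtr1 gave 1.16. DESeq2 size factors and the DESeq2 test left the counts of members, partners and targets called as they were. Counts were lowest for Amot, with at most 70 in a library, and the part of depth in its missed call was not tested.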
